A study of Mus musculus with 14 samples.

Results

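Ash2l, Wdr5, Rbbp5 and Dpy30 encode the 4 proteins that every H3K4 methyltransferase complex of the COMPASS family shares. Their genes were examined here as places that carry trimethylated lysine 4 of histone H3 (H3K4me3). These are 4 of 21938 protein-coding genes in the GENCODE M21 annotation of the mouse genome build mm10. A listed H3K4me3 peak counted for a gene when it touched the gene body or came within 1 kb of any of that gene's annotated transcription start sites (TSSs). This gave 18 of 25431 listed peaks. Of 32965 listed putative enhancers, 11 lay in 1 of the 4 genes or within 50 kb of it.

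The peaks came from ChIP-seq of immortalised mouse embryo fibroblasts (iMEFs), for which the labels describe 12 H3K4me3 libraries and 2 input libraries. Untreated cells and cells treated with dTAG for 30 min, 2 h, 4 h, 8 h or 16 h formed 6 H3K4me3 groups of 2 replicates each, and the 2 inputs came from untreated cells and from 16 h of dTAG. All groups, the untreated included, derive from iMEFs with floxed Ash2l alleles and Cre-ER. Per the study's methods, exon 4 of the endogenous gene was deleted in them, and a lentiviral construct supplied human ASH2L fused to a mutant FKBP12 and to HA tags (FKBP-HA2-ASH2L), which dTAG-13 brings to the Cereblon ubiquitin ligase for degradation. The cells are a selected clone, NG3, so the 2 replicates of a group share 1 clone. The list pools the peaks of all samples and holds a chromosome, a start and an end only. It does not say in which sample a peak was found or how high it was, so each value below is a position, a width or a count without a replicate error, and changes upon loss of ASH2L were not analysed here. The depth behind the peaks is unknown for the same reason.

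ASH2L, WDR5, RBBP5 and DPY30 bind to each other and to a catalytic subunit of the KMT2 family, whose activity is low without them. H3K4me3 is concentrated around the TSSs of active genes, most of which lie in CpG islands, where cytosine and guanine stand next to each other more often than in the bulk of the genome. The core subunits are expressed in most tissues, fibroblasts among them.

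To show the kind of sequence that did and did not carry a peak, 4 promoter windows from RefSeq (GRCm38.p6) are given, each from 250 bases before to 50 bases after a RefSeq TSS and read in the direction of transcription. The RefSeq promoter table held windows for 3 of the 4 genes, and Ash2l is named only. The first window is the Wdr5 promoter at chr2:27514897-27515196 (plus strand) and the second is that of Rbbp5 at chr1:132477117-132477416 (plus strand). The third window is the Dpy30 promoter that lay inside a peak, at chr17:74316384-74316683, and the last is an upstream Dpy30 TSS without a peak, at chr17:74323895-74324194, both on the minus strand. Capitals mark CpG dinucleotides.
Wdr5: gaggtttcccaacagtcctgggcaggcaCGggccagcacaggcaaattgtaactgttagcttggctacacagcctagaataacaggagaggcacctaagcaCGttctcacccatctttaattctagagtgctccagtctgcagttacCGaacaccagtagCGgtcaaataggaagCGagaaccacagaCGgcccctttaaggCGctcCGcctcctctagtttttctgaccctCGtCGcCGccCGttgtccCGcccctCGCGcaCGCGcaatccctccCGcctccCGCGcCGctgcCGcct
Rbbp5: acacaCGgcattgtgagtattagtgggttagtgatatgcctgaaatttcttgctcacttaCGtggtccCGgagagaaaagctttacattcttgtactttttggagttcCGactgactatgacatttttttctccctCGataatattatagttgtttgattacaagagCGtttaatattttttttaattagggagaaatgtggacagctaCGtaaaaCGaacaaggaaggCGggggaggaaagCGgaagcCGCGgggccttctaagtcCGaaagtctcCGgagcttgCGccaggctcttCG
Dpy30 inside the peak: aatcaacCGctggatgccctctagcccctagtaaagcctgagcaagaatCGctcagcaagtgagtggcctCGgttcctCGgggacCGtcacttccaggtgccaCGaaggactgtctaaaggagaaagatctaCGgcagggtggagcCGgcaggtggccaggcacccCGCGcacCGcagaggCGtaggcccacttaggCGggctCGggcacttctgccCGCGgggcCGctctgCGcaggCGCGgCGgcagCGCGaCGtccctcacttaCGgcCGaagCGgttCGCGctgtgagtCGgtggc
Dpy30 upstream: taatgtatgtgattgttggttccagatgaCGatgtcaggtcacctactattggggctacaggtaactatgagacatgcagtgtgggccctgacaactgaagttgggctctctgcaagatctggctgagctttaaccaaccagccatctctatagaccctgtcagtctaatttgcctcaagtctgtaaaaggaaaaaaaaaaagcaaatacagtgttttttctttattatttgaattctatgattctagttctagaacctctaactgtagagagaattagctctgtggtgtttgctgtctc

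The Wdr5 window held 22 CpGs and the Rbbp5 window 16 CpGs. The Dpy30 window inside the peak held 30 CpGs, and the upstream Dpy30 window held 1 CpG. Over all 32851 windows of the table, from 27025 genes, the median was 7 CpGs (quartiles 3 and 20). The 3 promoters near a peak were therefore above the median, while the upstream Dpy30 window was below the lower quartile. Of the 300 bases in each window, all lay inside a peak for Wdr5 and for the first Dpy30 window, 104 did for Rbbp5, and none did for the upstream Dpy30 window.

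Short promoter motifs were searched in the windows on both strands, with positions counted from the RefSeq TSS as 0. The core of the site bound by NRF1, CGCANGCG, occurred at position 9 in Wdr5 and at position -18 in the Dpy30 window inside the peak, and 8.21% of all windows held it. 2 other RefSeq windows of Dpy30 overlapped that window and contained the same site. The GC box GGGCGG, a site for SP family factors, occurred in Wdr5 at positions -13 and -1, against 35.7% of all windows with at least 1 such box. It was also present at position -3 of 1 of the Dpy30 windows that are not printed. The core of ETS factor sites, CGGAAG, was found in Rbbp5 at position -8 (16.9% of windows). A CCAAT box stood at position -202 of the upstream Dpy30 window (37.4% of windows). The letters TATAAA were in none of the 4 windows printed, and 13.6% of all windows had them. These matches describe the letters only and say nothing about binding.

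All 4 genes had a peak within 1 kb of a TSS, as did 59.1% of protein-coding genes. Their number of peaks differed, with 12 assigned to Ash2l and 2 each to Wdr5, Rbbp5 and Dpy30. The median of coding genes with a promoter peak was 2 peaks. Of the 27 annotated TSSs of the 4 genes, 20 had a peak within 1 kb, against 65.4% of the TSSs of all coding genes with a promoter peak. The TSSs without a peak were 3 in Ash2l, 2 in Wdr5, 1 in Rbbp5 and 1 in Dpy30.

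**Figure D1:**
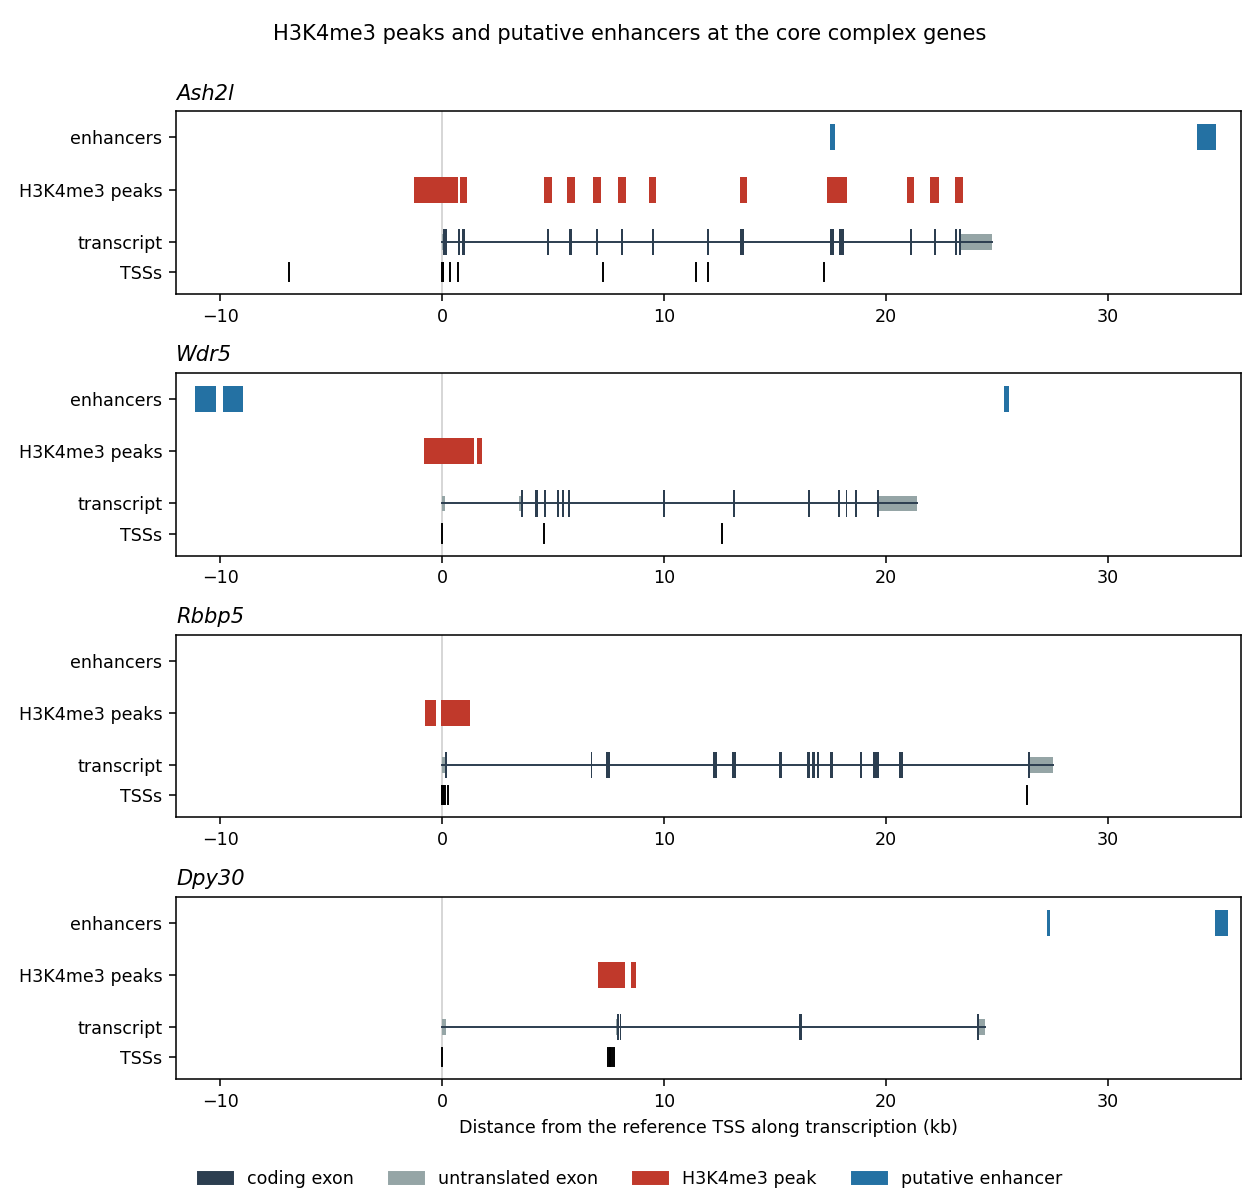
Position of the listed H3K4me3 peaks (red), putative enhancers (blue), coding and untranslated exons of the reference transcript and all annotated TSSs (black ticks) at the 4 genes, in kb from the reference TSS along transcription. The 12 peaks of Ash2l run across the gene, the 2 peaks of each other gene lie together at 1 promoter, and 4 enhancers beyond 36 kb (1 of Wdr5 and 3 of Dpy30) are outside the axis.

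Ash2l encodes the subunit that stimulates the catalytic subunits together with RBBP5, and it is the protein replaced and degraded in these cells. The gene (ENSMUSG00000031575.18) spans 31699 bp of chromosome 8, from 25815996 to 25847694 on the minus strand. It has 11 annotated transcripts with 11 different TSSs. The reference transcript used here is the coding transcript with the longest coding sequence (ENSMUST00000068892.14), whose TSS is at 25840787. The widest promoter peak covered 25840077 to 25842055, a width of 1979 bp. It contained 6 of the TSSs and reached 1268 bp upstream and 710 bp downstream of the reference TSS.

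The Ash2l promoter peak thus extended farther upstream than downstream. Among 9995 coding genes with a peak over the reference TSS, 84.6% had more bases downstream, and the medians were 310 bp upstream and 918 bp downstream. A coding TSS 6907 bp upstream of the reference TSS had no peak, and the nearest peak began 5639 bp away. The widest peak of 1979 bp stood at the percentile 83.5 of the 12966 coding genes with a promoter peak.

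The other 11 Ash2l peaks each lay over a coding exon. They were 319 to 884 bp wide with a median of 356 bp, and together all 12 peaks held 6373 bp. Of these 11 peaks, 9 lay over a single coding exon, 1 peak of 884 bp spanned exons 11 and 12, and 1 peak of 356 bp spanned exons 15 and 16. Counting the promoter peak over exon 1, 14 of the 16 coding exons had a base in a peak and 13 were wholly inside. Peaks held 1693 of the 1869 coding bases, which is 90.6%.

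Along transcription, the first 3 of the gene-body peaks covered 25839657 to 25839975 (exon 3, 319 bp), 25835855 to 25836202 (exon 4, 348 bp) and 25834814 to 25835172 (exon 5, 359 bp). The next 3 covered 25833629 to 25833986 (exon 6, 358 bp), 25832487 to 25832847 (exon 7, 361 bp) and 25831146 to 25831480 (exon 8, 335 bp). From exon 3 to exon 8 each exon thus had a peak of its own, of nearly the same width. After exon 9, peaks lay at 25827035 to 25827373 (exon 10, 339 bp) and at 25822556 to 25823439 (exons 11 and 12). The last 3 were at 25819517 to 25819864 (exon 13, 348 bp), 25818403 to 25818789 (exon 14, 387 bp) and 25817309 to 25817664 (exons 15 and 16). In the last exon, which also holds the 3' untranslated region, the peak covered all 105 coding bases and 95 untranslated bases.

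The peaks followed the exons in position. For the 9 exons alone in their peak, the centre of the peak was 0.5 to 78.5 bp from the centre of the exon, with a median of 14 bp. These exons measured 76 to 218 bp and their peaks 319 to 387 bp, so each peak was 121 to 288 bp longer than its exon. At exons 3 and 14 the centres were 0.5 and 1 bp apart, in peaks of 319 and 387 bp. At exon 10 the distance was 78.5 bp, and 91.7% of the exon lay in the peak.

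**Figure D2:**
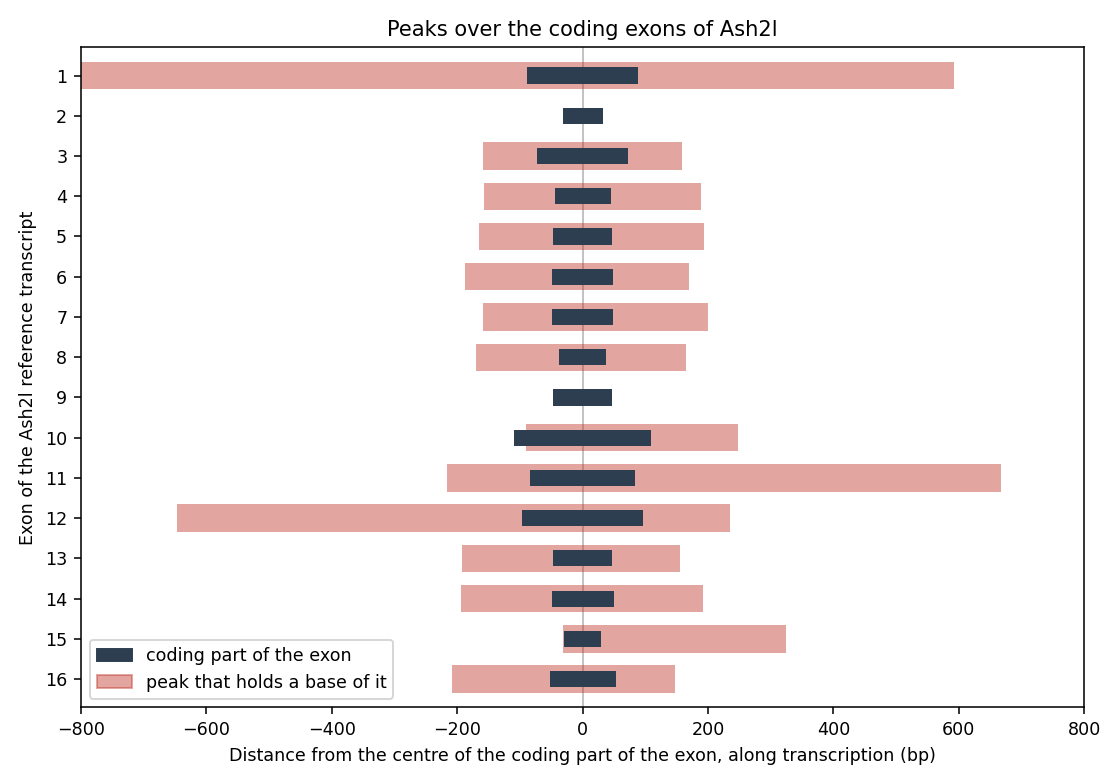
The 16 coding exons of the Ash2l reference transcript, each centred on the middle of its coding part, with the peak that holds a base of it; distances are in bp along transcription, and the peak over exon 1 runs beyond the left edge. Exons 2 and 9 have no peak, and most other peaks sit nearly centred on their exon.

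Exon 2 (64 bp) and exon 9 (94 bp) were the coding exons without a peak. Exon 2 was separated from the promoter peak by 1 base, whereas exon 9 was 1393 bp from the nearest peak. Exon 4 of the reference transcript (25836000 to 25836088, 89 bp) lay wholly inside a peak of 348 bp, from 25835855 to 25836202. This is the exon number that the study gives for the deletion, although the transcript it counted in is not stated in the sources used here. The distance between the centres was 15.5 bp at exon 4, similar to 14 bp at exon 5 and 20.5 bp at exon 7.

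Coding and non-coding bases of Ash2l differed in coverage by peaks. Beyond 1 kb downstream of the reference TSS, 1415 of 1527 coding bases lay in a peak (92.7%). For untranslated exon bases the count was 95 of 1408 (6.75%), and for intron bases it was 2695 of 20856 (12.9%). In Wdr5 and Rbbp5 none of the coding bases beyond 1 kb lay in a peak, out of 1002 and 1595 bases. Their introns had 3.51% and 1.14% in peaks. Dpy30 had 84 of 297 coding bases in a peak (28.3%), all of them beside TSSs that lie inside the same peak.

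**Figure D3:**
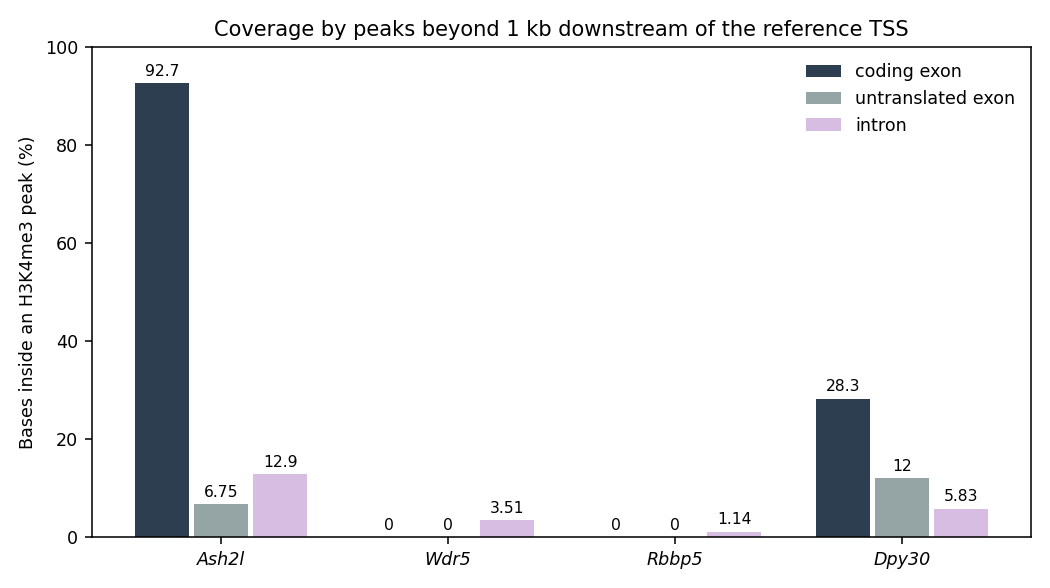
Percent of coding exon, untranslated exon and intron bases beyond 1 kb downstream of the reference TSS that lay in an H3K4me3 peak, by gene and without replicates. Coding exons of Ash2l reach 92.7%, against 0% for Wdr5 and Rbbp5 and 28.3% for Dpy30, whose reference TSS lies upstream of the TSSs with a peak.

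A peak over a coding exon, with all of its bases beyond 1 kb of the reference TSS, was found in 2 of the 4 genes and in 5.42% of coding genes. Ash2l had 10 such peaks, Dpy30 had 1, and Wdr5 and Rbbp5 had 0. The Dpy30 peak is its promoter peak, which contains 5 TSSs of the gene. It was counted because the reference TSS of Dpy30 lies 7012 bp upstream of it. Dpy30 had 0 gene-body peaks farther than 1 kb from every annotated TSS. Over all coding genes, 20749 had 0, 1063 had 1 and 126 had 2 or more. The count of 10 was shared with Thbs1, the gene of the matrix protein thrombospondin, and the next gene, Plec, had 5. Measured by exons, 12 of 13 Ash2l coding exons beyond 1 kb had a peak (92.3%), whereas the median of 12054 genes with 5 or more such exons was 0% and the 99th percentile was 25%. In this measure 6 genes were at or above Ash2l, among them Thbs1 with a peak on 19 of 20 such exons.

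The centring was examined after the Ash2l values had been seen. Of 8 Ash2l peaks over exactly 1 coding exon beyond 1 kb of the reference TSS, 7 were centred within 25 bp of the exon's centre. In all other coding genes, 95 of 787 such peaks were (12.1%), and these came from 95 genes with 1 each. The median distance was 14.75 bp in Ash2l and 120.5 bp in the other genes, and the median widths were 353 and 510 bp. Thbs1 had 4 peaks over exactly 1 coding exon, with none within 25 bp. Their distances were 30.5 to 549.5 bp with a median of 48.25 bp, between the medians of Ash2l and of the other genes. Their median width was 482 bp. The Ash2l peaks were thus narrower and closer to the middle of their exon than most peaks of this kind.

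The same can be described with the annotation of all transcripts. Ash2l had 7 peaks that were farther than 1 kb from each of its TSSs, and all 7 touched an exon. Over all coding genes, 606 of 3450 such peaks touched an exon (17.6%) and 386 touched a coding exon (11.2%). The 4 TSSs within the Ash2l gene body belong to non-coding transcripts, and a peak lay within 1 kb of 2 of them, at distances of 84 and 136 bp. No peak contained any of these 4 TSSs.

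Of all coding genes, 15, Ash2l included, had at least 12 peaks, with a maximum of 105 in a gene of 4434882 bp.

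The base composition of the Ash2l gene-body peaks differed from that of its promoter peak. The ratio of observed to expected CpGs was 0.712 in the promoter peak, which held 107 CpGs, and 0 to 0.593 in the other 11 peaks. Peaks over exons 6 and 8 contained 0 CpGs. The median over all listed peaks was 0.565, a value that 1 of the 11 gene-body peaks exceeded, the peak over exon 5 with 6 CpGs in 359 bp.

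The cells also carry the Ash2l coding sequence of another species without introns, in the FKBP-HA2-ASH2L construct, and sequences for FKBP12 and Cre-ER. Peaks at the mouse genes for the other parts of these proteins were therefore looked up after the Ash2l values had been seen. Fkbp1a, which encodes FKBP12, had a peak of 361 bp (chromosome 2, 151557245 to 151557605) over a coding exon of 113 bp. Its centre was 17 bp from that of the exon, and the nearest TSS was 11835 bp away. Esr1, which encodes the oestrogen receptor, had a peak of 248 bp (chromosome 10, 4856898 to 4857145) within a coding exon of 336 bp, with centres 4 bp apart and the nearest TSS 65825 bp away. Both are among the 95 centred peaks outside Ash2l. Of the coding exons beyond 1 kb of the reference TSS, 1 of 2 in Fkbp1a and 1 of 8 in Esr1 had a peak. In Ash2l 12 of 13 had one. Whether reads from the constructs fell into the peaks of Ash2l, Fkbp1a or Esr1 was not tested, since the lists hold no reads.

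Wdr5 encodes a WD40 repeat protein that holds the complex to a short motif in the catalytic subunits. The gene (ENSMUSG00000026917.15) lies on the plus strand of chromosome 2, from 27515157 to 27536535 (21379 bp), with 4 transcripts and 3 TSSs. A peak of 2234 bp, from 27514338 to 27516571, reached 819 bp upstream and 1414 bp downstream of the reference TSS. It was the widest of the promoter peaks in the 4 genes, at the percentile 89.1 of coding genes with a promoter peak. A second peak of 205 bp (27516721 to 27516925) followed after a gap of 149 bp, inside an intron.

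Both Wdr5 peaks lay near 1 TSS. The TSSs 4604 and 12615 bp into the gene had no peak, with 2836 and 10847 bp to the nearest. The region within 1 kb on either side of these TSSs held 10 and 20 CpGs, and that of the reference TSS held 102. In the second peak 1 CpG was present and the observed-to-expected ratio was 0.0841, against 0.578 in the first peak. The gap between them held 0 CpGs.

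Wdr5b, an intronless copy of Wdr5 on chromosome 16, had 1 peak of 548 bp. This is at the percentile 7.03 of coding genes with a promoter peak. Its peak was thus narrower than each of the 4 widest peaks of the core genes.

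Rbbp5 encodes the WD40 protein that contacts ASH2L and the catalytic domain. The gene (ENSMUSG00000026439.14) lies on the plus strand of chromosome 1, from 132477365 to 132505659 (28295 bp), and has 7 transcripts with 7 TSSs. The wider of its peaks, from 132477313 to 132478638 (1326 bp), contained 6 TSSs and reached 54 bp upstream and 1271 bp downstream of the reference TSS. A second peak of 486 bp, from 132476596 to 132477081, lay upstream and outside the gene. The retained-intron TSS 26366 bp into the gene had no peak.

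Of the 4 genes, Rbbp5 alone shared a promoter peak with a neighbour. The long non-coding RNA gene 6030442K20Rik has TSSs at 132477045 and 132477064 on the opposite strand, both inside the upstream peak. A divergent TSS within 1 kb upstream was annotated for 22.4% of coding genes with a peak at the reference TSS. The 2 peaks were separated by 231 bp, from 132477082 to 132477312, between the divergent TSSs. This interval was not poor in CpGs, with 9 of them and an observed-to-expected ratio of 0.952, and its GC content was 40.7%. In the printed Rbbp5 window, 196 of the 300 bases fall in it.

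Dpy30 encodes the small subunit that binds to ASH2L as a dimer. The gene (ENSMUSG00000024067.14) lies on the minus strand of chromosome 17, from 74299474 to 74323944 (24471 bp), with 6 transcripts and 6 TSSs. A peak of 1236 bp, from 74315697 to 74316932, contained 5 TSSs. It stood at the percentile 48.6, the lowest of the 4 genes. A second peak of 218 bp (74315224 to 74315441) followed 255 bp downstream of it in an intron.

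The Dpy30 peaks lay inside the annotated gene and not at its outer end. The TSS of the reference transcript, at 74323944, was 7012 bp from the nearest peak and had none within 1 kb, whereas a peak lay within 1 kb of the reference TSS in 55.6% of coding genes. The TSS at 74316463, the farthest upstream of those inside the peak, had 469 bp of peak upstream and 766 bp downstream. The region around the outer TSS held 15 CpGs within 1 kb on either side (observed-to-expected ratio 0.174). Around the 5 TSSs inside the peak it held 99 to 104 CpGs, with ratios of 0.759 to 0.805. The upstream window printed above shows the same contrast in its letters, with 1 CpG against 30.

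The widest promoter peaks of the 4 genes were 1236 bp for Dpy30, 1326 bp for Rbbp5, 1979 bp for Ash2l and 2234 bp for Wdr5. Their median was 1652.5 bp, and the median over coding genes with a promoter peak was 1255 bp with quartiles of 908 and 1710 bp. Dpy30 and Rbbp5 thus lay within the middle range of all genes, and Ash2l and Wdr5 above it. Without replicate values for the width, whether neighbours in this order differ beyond the error of peak calling cannot be said.

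**Figure D4:**
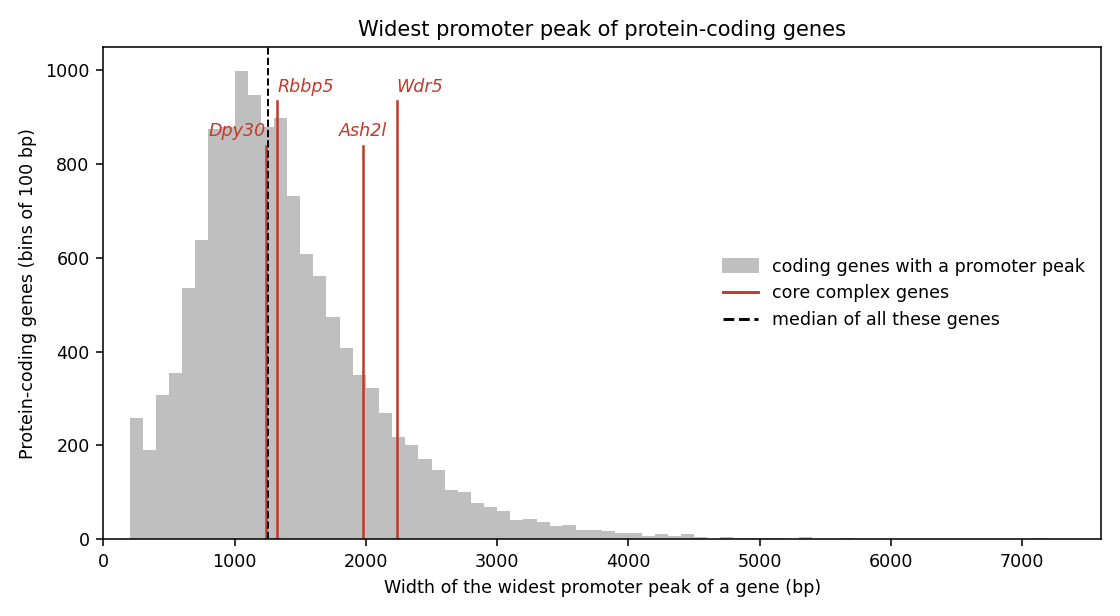
Width of the widest promoter peak of each of the 12966 protein-coding genes with one, in bins of 100 bp, with the 4 core complex genes (red lines) and the median of all these genes (dashed, 1255 bp). Dpy30 (1236 bp) and Rbbp5 (1326 bp) lie beside the median, and Ash2l (1979 bp) and Wdr5 (2234 bp) lie to its right.

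The promoters of the 4 genes shared a high density of CpGs where a peak was present. Within 1 kb on either side of the reference TSS the observed-to-expected ratio was 0.715 in Ash2l, 0.588 in Wdr5 and 0.659 in Rbbp5. Over coding genes with a peak at the reference TSS the median was 0.634 (quartiles 0.518 and 0.74), and over those without it was 0.195. The 3 promoters were within or near this middle range, and the outer TSS of Dpy30 at 0.174 was close to the median of genes without a peak.

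**Figure D5:**
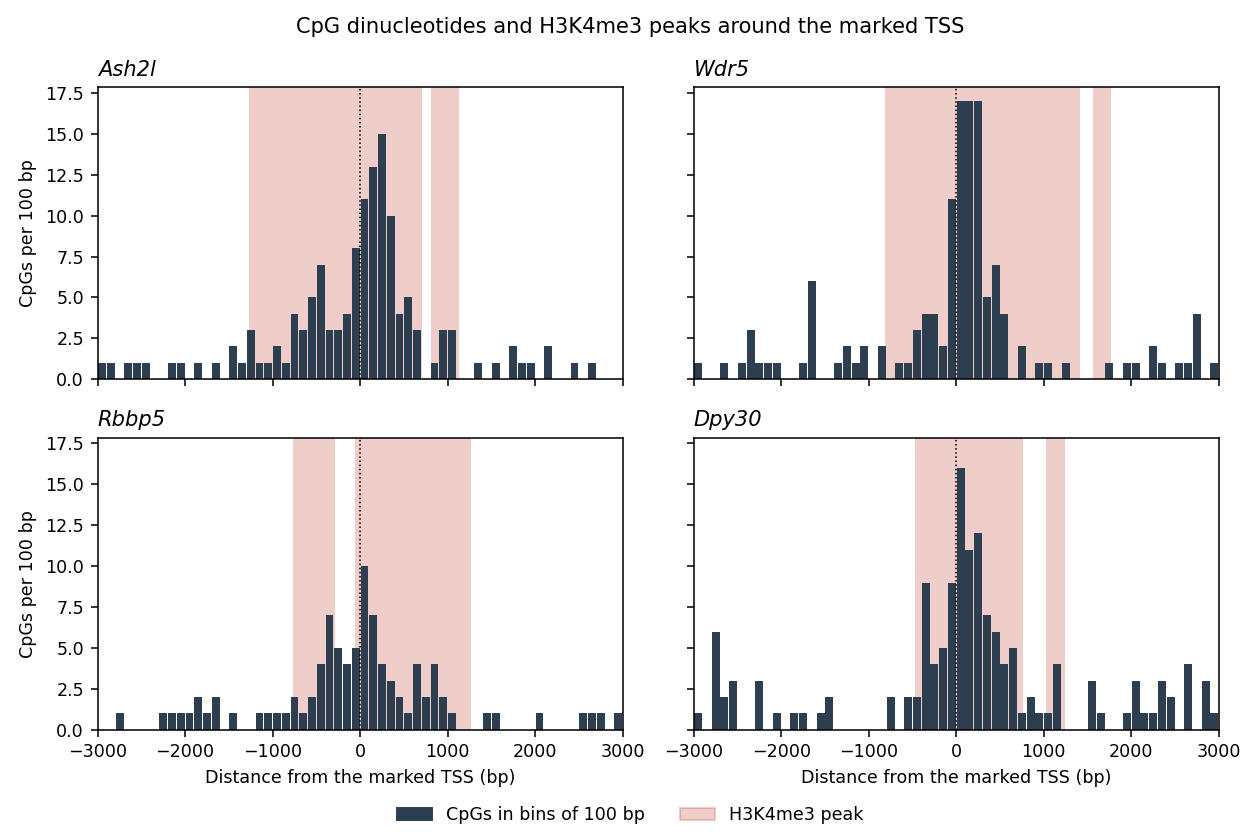
CpG dinucleotides in bins of 100 bp (dark bars) and listed H3K4me3 peaks (shaded) within 3 kb of the reference TSS of Ash2l, Wdr5 and Rbbp5 and of the coding TSS of Dpy30 at 74316463. In each gene the bins richest in CpGs lie just downstream of the TSS inside the widest peak, and the second Wdr5 peak lies where CpGs are nearly absent.

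The authors defined putative enhancers in control cells by accessible chromatin with H3K4me1 and H3K27ac. They left out overlaps with 1 kb on either side of the TSSs of known mm10 promoters. Listed enhancers were found in or within 50 kb of 3 of the 4 genes, compared with 62.3% of coding genes. Dpy30 had 5, Wdr5 had 4, Ash2l had 2 and Rbbp5 had 0. The median over coding genes was 1 (quartiles 0 and 3). Wdr5 and Dpy30 were above the upper quartile, and Rbbp5 had none within 100 kb either.

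Most of these enhancers lay in neighbouring genes. Of the 5 assigned to Dpy30, 4 were in Memo1 and 1 was between the genes. The Memo1 region of 594 bp lay over an annotated TSS of that gene. Of the 4 assigned to Wdr5, 2 were in Brd3, which encodes a bromodomain protein, 1 was on an exon of the non-coding gene Gm13421 and 1 was intergenic. The 2 of Ash2l were 1 region of 856 bp (25805906 to 25806761) over the TSS of Star, a gene of steroid synthesis, and 1 region of 200 bp inside Ash2l. The latter, from 25823109 to 25823308, lay on coding exon 11 and overlapped the peak of 884 bp. That exon (25823139 to 25823306, 168 bp) lay wholly inside the region. Whether reads from the construct fell into this region was not tested.

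Overlap between the 2 lists was seen for 2 of the 11 enhancers, that on Ash2l exon 11 and that on Gm13421, against 7.52% of all listed enhancers. The Gm13421 region was 22 bp from a TSS of that gene and the Ash2l region was 267 bp from a TSS of a non-coding Ash2l transcript. Of all enhancers, 7.27% had their centre within 1 kb of an annotated TSS.

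The coding neighbours differed in their own peaks. On either side of Ash2l, Star and Kcnu1 had 0 peaks. Dstyk, upstream of Rbbp5, had a widest promoter peak of 1599 bp, and Tmem81 on its other side had none. Brd3 beside Wdr5 had 1806 bp, and Memo1 and Spast beside Dpy30 had 2395 and 1662 bp. None of these shared a peak with a core complex gene.

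The genes of proteins that act with or against the core complex were counted for comparison. All 6 genes for catalytic subunits (Kmt2a to Kmt2d, Setd1a and Setd1b) had a promoter peak, with widest peaks of 2348 to 4326 bp and a median of 2939.5 bp. Each of these was wider than the promoter peaks of Ash2l, Wdr5, Rbbp5 and Dpy30. Of 11 genes for partners found in only some of the complexes, 10 had a peak, of 1021 to 3599 bp (median 1777.5 bp), and Men1, which encodes menin, had none. Of 6 genes for H3K4 demethylases, 5 had a peak, of 1324 to 2475 bp (median 1949 bp). The exception was the Y-linked Kdm5d.

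Across these 23 genes the widest peaks were at Kmt2d (4326 bp) and Setd1b (4026 bp). The narrowest were at Cxxc1 (1021 bp), whose product reads unmethylated CpGs, and at the demethylase gene Kdm1a (1324 bp). The median over the 21 with a peak was 1967 bp. Numbers of peaks per gene were 0 to 3. A peak over a coding exon, with all of its bases beyond 1 kb of the reference TSS, was found in 1 of the 23, against 5.42% of coding genes. This was Kmt2b with 1 such peak, where Ash2l had 10.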

How the data were processed

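The labels describe 12 H3K4me3 and 2 input libraries. Per the study's methods, the authors trimmed reads with Trim Galore, aligned them with BWA to mm10, filtered with SAMtools, merged replicates with Picard and called narrow peaks with MACS; versions are not given in the sources used here. The deposited peaks are pooled from all samples, and the deposited enhancers stem from control cells. Both lists used here hold positions only, with 0 columns of values per sample. The planned count test over time was therefore not run, and no depth, interval or p-value is given.

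Peak starts, which count from 0, were converted to counting from 1. Peaks were intersected with all GENCODE M21 transcripts on chromosomes 1 to 19, X and Y (25357 peaks) in Python 3.11.15 with NumPy 2.4.6, pandas 2.3.3 and Matplotlib 3.10.9, after tests on simulated intervals. The reference TSS was that of the coding transcript with the longest coding sequence. CpG ratios were CpGs times length divided by the product of C and G counts, from RefSeq GRCm38.p6. The 4 genes, the gene lists and the tests were chosen with earlier results of these data known. Named were the 4 genes, genes sharing a peak, coding neighbours, Wdr5b and the widest and narrowest 2 of the listed genes. Thbs1, Plec, Fkbp1a, Esr1, Gm13421, Men1, Kdm5d, Kmt2b and the 25 bp limit were added after values were seen. Alternatives were other windows (0, 3, 10 and 100 kb), merging of peaks within 1 kb, a minimum width of 500 bp, 1 TSS per gene, coding neighbours only and a CpG window of 250 bp.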

Additional observations from a re-analysis of the deposited data

How the results depend on the processing

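No paired analysis was possible because deposited positions carry no values per replicate, and for the same reason no replicate could be left out. Of 96 alternative values, 75 were counted as unchanged, which for widths and extents meant the identical value and otherwise a value within 1.5 times, and 21 moved. Peaks merged within 1 kb of each other left 6 for Ash2l and 1 each for Wdr5, Rbbp5 and Dpy30, and a minimum width of 500 bp left 2 for Ash2l and 1 for each of the other three. Assigning peaks with a 0 kb window left 1 for Rbbp5. The widest peak after merging was 3716 bp in Ash2l, where it joined gene-body exon peaks near a non-coding TSS and not the promoter, 2588 bp in Wdr5, 2043 bp in Rbbp5 and 1709 bp in Dpy30. The merged peak reached 1130 bp downstream of the reference TSS in Ash2l and 1768 bp in Wdr5. When at least 50% of a peak had to lie on exons of any annotated Ash2l transcript, 4 TSS-distal peaks of Ash2l counted as exonic. The exons in this setting included those of non-coding transcripts. Enhancers within 10 kb were 2 for Wdr5 and 1 for Dpy30, and 0 remained for Ash2l beyond 1 kb of a TSS. With coding neighbours only, Rbbp5 shared its promoter with 0 genes. The CpG ratio of Wdr5 within 250 bp was 1.07. With 1 TSS per gene, Dpy30 had no promoter peak, and its extent around the reference TSS has no value; the extent at its coding TSS inside a peak was added after seeing the data.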
